A study of Homo sapiens with 3 samples.

Results

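The box H/ACA small nucleolar RNAs (snoRNAs) of HEK293 cells are described here, leaving out 9 of them (SNORA22, SNORA36B, SNORA81, SNORA63, SNORA4, SNORA27, SNORA75, SNORA73A and SNORA73B). The members were all other snoRNAs that the deposited files label as box H/ACA, whatever their reads, and they numbered 83 of the 259 snoRNAs with reads. HEK293 is an established human embryonic kidney line, grown for these samples in DMEM with foetal bovine serum, penicillin and streptomycin, and the labels name no treatment. RNA isolation was by phenol and chloroform, 2 µg of total RNA was cleaned on magnetic beads to enrich small RNA, and the Ion Total RNA-Seq Kit v2 gave 3 libraries. All 3 libraries form 1 group, and the labels do not say whether they came from separate cultures, so the spread between them may be technical. The identity of the cells could not be checked, since the files used here hold snoRNA reads only.

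A box H/ACA snoRNA folds into a 5′ and a 3′ hairpin joined by a single-stranded hinge that carries the H box, and it ends in a short tail with the trinucleotide ACA. An internal loop in a hairpin pairs with a target RNA and places one uridine for conversion to pseudouridine by dyskerin, the enzyme of the particle. Most of these RNAs in human cells are cut out of introns of protein-coding or noncoding host genes, and both hairpins are protected by a set of core proteins. Short RNAs cut from snoRNAs have been described in many cells, and from box H/ACA snoRNAs they often come from a single hairpin.

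The RNAs on which the results turn are printed 5′ to 3′, with the H box (ANANNA, where N is any base) and the ACA of the tail in capitals. Sequences and coordinates are those of GENCODE 29 on GRCh38, and every one of these genes is on the minus strand except SNORA3A.
SNORA80E: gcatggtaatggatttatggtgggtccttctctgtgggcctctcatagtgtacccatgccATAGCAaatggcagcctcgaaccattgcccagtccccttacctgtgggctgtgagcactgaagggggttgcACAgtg
SNORA7A: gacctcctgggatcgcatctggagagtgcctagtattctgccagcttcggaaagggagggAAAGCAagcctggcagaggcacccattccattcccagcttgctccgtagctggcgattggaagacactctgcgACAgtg
SNORA19: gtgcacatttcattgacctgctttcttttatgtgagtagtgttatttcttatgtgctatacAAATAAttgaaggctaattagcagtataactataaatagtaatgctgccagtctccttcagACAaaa
SNORA64: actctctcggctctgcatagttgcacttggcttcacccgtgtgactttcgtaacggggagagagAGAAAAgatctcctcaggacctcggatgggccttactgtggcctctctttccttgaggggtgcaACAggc
SNORA2B: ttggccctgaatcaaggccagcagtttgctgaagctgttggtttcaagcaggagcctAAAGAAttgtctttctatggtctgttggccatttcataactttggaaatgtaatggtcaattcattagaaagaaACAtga
SNORA9: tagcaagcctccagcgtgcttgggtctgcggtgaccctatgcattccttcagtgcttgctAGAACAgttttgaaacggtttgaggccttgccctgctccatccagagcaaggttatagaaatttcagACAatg
SNORA3A: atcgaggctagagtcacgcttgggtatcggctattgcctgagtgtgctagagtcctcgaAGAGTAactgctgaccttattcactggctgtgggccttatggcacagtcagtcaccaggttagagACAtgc
SNORA21: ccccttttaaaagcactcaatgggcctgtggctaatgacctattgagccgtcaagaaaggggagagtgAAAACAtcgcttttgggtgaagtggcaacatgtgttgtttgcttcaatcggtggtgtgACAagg
SNORA80E lies in an intron of KHDC4 at chr1:155919909-155920045 and SNORA7A overlaps an exon of RPL32, a ribosomal protein gene, at chr3:12840312-12840450. SNORA19 lies in an intron of the translation factor gene EIF3A at chr10:119060011-119060138 and SNORA64 in an intron of RPS2 at chr16:1962973-1963106. SNORA2B lies in an intron of KANSL2 at chr12:48667457-48667593, and SNORA21 in an intron of RPL23 at chr17:38852863-38852994. SNORA9 overlaps an exon of the noncoding host SNHG15 at chr7:44985378-44985510, and SNORA3A one of RPL27A at chr11:8684227-8684356.

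The label was checked against the sequences of the 82 members with a GENCODE entry. An H box lying wholly between 40% and 60% of the RNA was found in 73 of them (89.0%), and an ACA 3 bases from the 3′ end in 64 (78.0%). Both were present in 60 (73.2%). The same search on the RNA strand of 122 box C/D snoRNAs, which carry other boxes, found the H box in 12 (9.84%), the ACA in 1 (0.820%) and both in 0. The H box window is a share of the RNA, so it held fewer bases in the shorter box C/D RNAs. Their 9.84% is therefore not a chance rate for the members. By these motifs most members were box H/ACA RNAs as labelled. The RNAs had a median length of 134 nt (121 to 250), against 78 nt for box C/D snoRNAs. All 82 lay within a host gene, 72 in an intron and 10 overlapping an exon, with 62 different hosts. For those 10, among them SNORA7A, SNORA3A, SNORA9 and SNORA31, reads of the host transcript cannot be told apart from reads of the snoRNA. Ribosomal protein genes hosted 16 members, SNHG genes 13, and the TAF1D gene alone 6.

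The members were thinly covered. Libraries 1, 2 and 3 held 19989, 11958 and 19092 snoRNA reads, of which 1005, 400 and 1297 fell on members. That was 5.03% (95% Clopper-Pearson interval 4.73 to 5.34), 3.35% (3.03 to 3.68) and 6.79% (6.44 to 7.16), or 5.06% ± 1.72 (SD, n = 3). Library 2 was the lowest and the intervals of the 3 libraries did not overlap. The reads carry no molecular identifiers, so intervals and floors cover counting error only. A member with 0 reads could still have made up 0.0150%, 0.0251% and 0.0157% of the 3 libraries, taking 3 reads as the floor. Of the 83 members, 55 had reads in all 3 libraries, 18 in 2 and 10 in 1, and 73, 61 and 77 were detected in libraries 1, 2 and 3. At least 20 reads in all were found for 36 members, and fewer than 10 for 34.

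Levels were set per length, as reads per 100 nt of RNA per 10000 snoRNA reads of the library. The median member had a level of 2.05, against 36.9 for the median box C/D snoRNA and 11.1 for the median of all snoRNAs. Reads were concentrated in a few members: the 5 with the most reads took 39.6% of all member reads and the 10 with the most took 54.7%. SNORA80E, also known as SNORA42 and listed here among the guides of 18S rRNA, had levels of 68.7, 22.0 and 58.5 in libraries 1, 2 and 3 (49.7 ± 24.5, SD, n = 3). SNORA7A, a guide of 28S rRNA, had 44.99, 8.42 and 44.5 (32.6 ± 20.96). SNORA80E was above SNORA7A in each library, by 17.1 ± 5.70 (SD of the difference, n = 3). Among the 10 highest members this was the only pair of neighbours in the order of levels whose difference exceeded its SD.

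**Figure D1:**
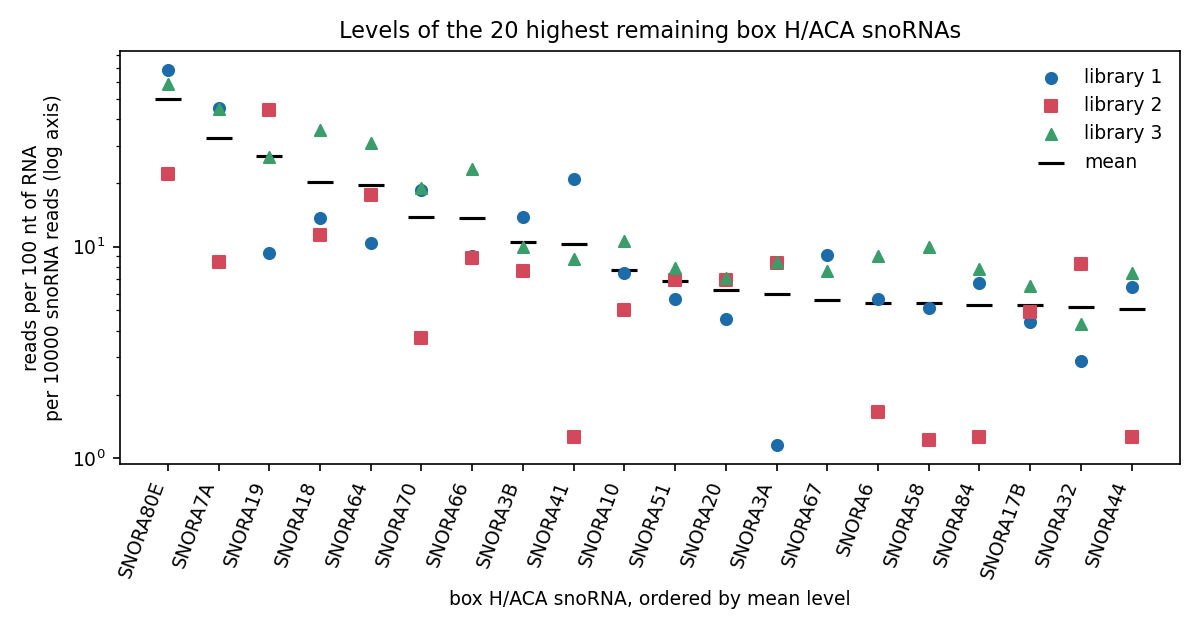
Level of the 20 highest members in each library (blue circles, library 1; red squares, library 2; green triangles, library 3) and their mean (black bars), as reads per 100 nt of RNA per 10000 snoRNA reads on a log axis. SNORA67 had 0 reads in library 2 and has no point there. The mean falls from 49.7 for SNORA80E to 5.08 for SNORA44, and library 2 is the lowest for most of these RNAs but the highest for SNORA19 and SNORA32.

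SNORA19, a 28S guide, followed with 9.38, 44.4 and 26.6 (26.8 ± 17.5), and it alone of the 10 highest was highest in library 2. SNORA18 stood at 13.6, 11.4 and 35.7 (20.3 ± 13.4), and SNORA64, a 28S guide, at 10.5, 17.5 and 30.9 (19.6 ± 10.4). The order of these 3 RNAs changed between libraries. SNORA70, a guide of 18S rRNA, reached 18.5, 3.72 and 19.01 (13.8 ± 8.69), and SNORA66, another 18S guide, 9.03, 8.80 and 23.2 (13.7 ± 8.27). SNORA3B, SNORA41 and SNORA10 completed the 10 highest at 10.5 ± 3.07, 10.3 ± 9.88 and 7.73 ± 2.81. SNORA41 was the most uneven of these, with 55, 2 and 22 reads. Of the 36 members with at least 20 reads, 23 were lowest in library 2, 6 were highest there, 8 were highest in library 1 and 22 in library 3. Their median coefficient of variation over the libraries was 0.581, from 0.0546 for SNORA21, with 9, 6 and 9 reads, to 1.07 for SNORA40, with 5, 2 and 23.

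Members that share a host gene had unequal levels. TAF1D carries SNORA18, SNORA32, SNORA40, SNORA8, SNORA1 and SNORA25, whose mean levels were 20.3, 5.17, 4.26, 1.42, 0.782 and 0.515. SNORA18 was above SNORA25, which had 1, 0 and 3 reads, in each library. In RPS2, SNORA64 had 28, 28 and 79 reads and SNORA10 had 20, 8 and 27. KANSL2 hosts SNORA2B, SNORA2A and SNORA2C, with 21, 6 and 3 reads in all. Only SNORA2B of these was seen in all 3 libraries.

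Guides were described by the rRNA they are known to modify, with lists drawn from textbook knowledge. Each guide was placed under a single rRNA and the lists need not be complete. Their shares and levels are therefore those of the listed RNAs, not totals for an rRNA. Of 22 listed guides of 18S rRNA, 20 had reads, and together they took 1.83%, 0.845% and 2.06% of all snoRNA reads (1.58% ± 0.647, SD, n = 3). All 19 listed guides of 28S rRNA had reads, and took 1.56%, 1.39% and 2.47% (1.81% ± 0.579). The 2 guides of 5.8S rRNA, SNORA72 and SNORA69, took 0.0622% ± 0.0248. The 18S list was led by SNORA80E, SNORA70, SNORA66 and SNORA20, and the 28S list by SNORA7A, SNORA19, SNORA64 and SNORA6. The median level was 2.26 for the 18S guides, 4.18 for the 28S guides and 2.36 for the 5.8S guides, beside 2.05 for all members. The shares of the 18S and the 28S guides overlapped between libraries.

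Several members belong to families of similar sequence. SNORA7A and SNORA7B differ at 2 of 139 bases (98.6% identity), so the split of their 257 and 33 reads is uncertain. SNORA80A and SNORA80B are 91.9% identical and had 4 and 7 reads, while SNORA80E, with 377 reads, is 76.6% and 75.9% identical to them. SNORA14A and SNORA14B (91.1% identity) had 1 and 29 reads. SNORA71B and SNORA71D (90.3%) had 11 and 8, SNORA71A had 9 and SNORA71E had 2. In each of the families SNORA7, SNORA80 and SNORA14, 1 member took most of the reads. SNORA3A and SNORA3B (70.2% identity), both hosted by RPL27A, had 37 and 73 reads. SNORA17A and SNORA17B (58.8%) in SNHG7 had 9 and 37. SNORA74A and SNORA74B (66.2%) had 50 and 2.

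Read length was set against RNA length by the span of each read. Full-length reads, spanning at least 90% of the RNA, made up 68.1%, 40% and 67.2% of member reads in libraries 1, 2 and 3 (58.4% ± 15.9, SD, n = 3). Partial reads, spanning at most 60%, made up 22.8%, 56.3% and 22.98%. Library 2 stood apart in both, with fewer full-length and more partial reads than the other libraries. Box C/D snoRNAs, measured the same way, had 68.2%, 56.2% and 64.9% full-length reads (63.1% ± 6.23). The log2 ratio of the 2 shares was -0.0034, -0.49 and 0.048, with a mean of -0.15 ± 0.30 (SD), and an exact two-sided sign-flip permutation test over 3 libraries gave p = 0.75. Without library 2 the mean was 0.022. Such an exact test cannot go below p = 0.25 with 3 libraries. It was 1 of 3 in its family, and the Benjamini-Hochberg adjusted p was 0.75 for each of the 3.

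**Figure D2:**
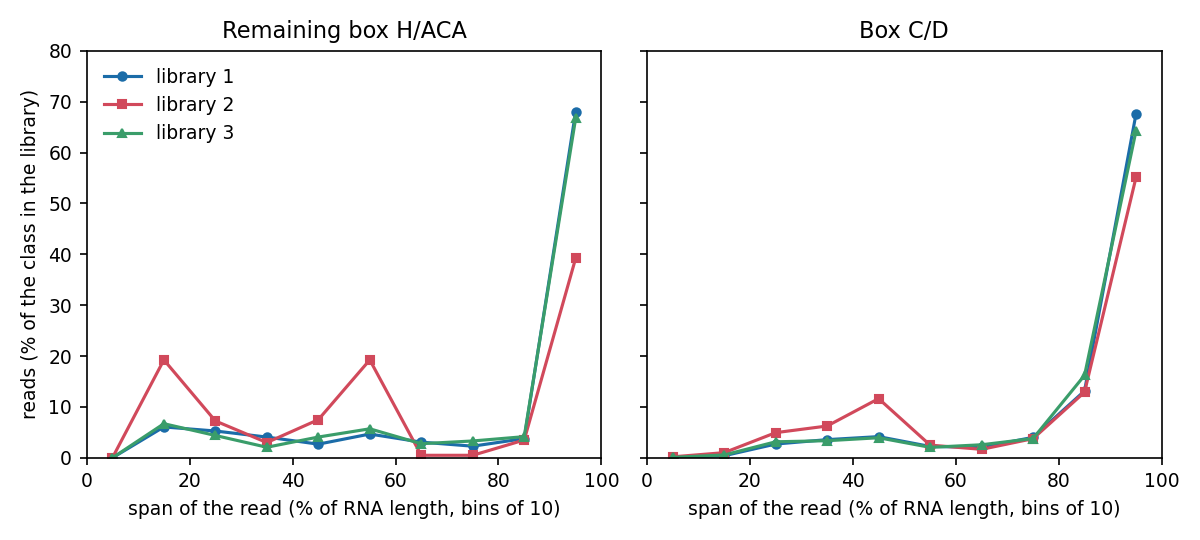
Share of reads by the span of the read as a percentage of RNA length, in bins of 10, for members (left) and box C/D snoRNAs (right), 1 line per library (blue, 1; red, 2; green, 3). The top bin is the fullest in every library and holds 68.1%, 39.3% and 66.8% of the members' reads in libraries 1, 2 and 3. In the members, library 2 has further peaks of 19.3% each in the bins of 10 to 20% and 50 to 60%, and in box C/D snoRNAs a peak of 11.6% at 40 to 50%.

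Where a read was full length, it was usually complete. This was measured in the 58 members whose annotated length equals the highest position in the reads, a choice made from the same reads that favours complete 3′ ends. Of their full-length reads, 91.8% ± 0.17 (SD, n = 3) began at base 1, 89.0% ± 2.20 ended at the last base and 81.7% ± 1.38 did both. In 52 box C/D snoRNAs chosen the same way, these shares were 56.5% ± 1.94, 38.4% ± 1.54 and 31.1% ± 1.37. Over all members and all box C/D snoRNAs, whatever their annotated length, both ends were complete in 62.2% ± 3.92 and 16.7% ± 1.05 of full-length reads. The members' libraries were above those of box C/D snoRNAs in each of these measures. Full-length reads of members that lacked bases only at the 3′ end made up 10.2% ± 1.25, and those that lacked them only at the 5′ end 7.32% ± 0.891. No read of SNORA80E went past position 134 of its 137 annotated bases, so by the annotation none of its reads reached the 3′ end, and it was not among the 58. Its 305 full-length reads therefore all counted as incomplete at the 3′ end in the shares over all members, which lowered those shares.

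Members differed in how much of their signal was full length. Among the 36 with at least 20 reads the full-length share had a median of 64.8% and ran from 0% in SNORA2B to 85.7% in SNORA70, and it was above 50% in 23 of them. In all, 75 of the 83 members had at least 1 full-length read. Full-length and partial reads were then compared within each snoRNA with edgeR's quasi-likelihood test, with library as a block and Benjamini-Hochberg adjustment over the 201 snoRNAs with enough reads. Of 45 members tested, 8 had more full-length reads (17.8%), while 40.3% of all tested snoRNAs were called in that direction. A further 3 members (6.67%) had more partial reads, against 15.4% of all tested. The remaining 34 tested members did not pass the threshold of 0.05, and 38 members had too few reads to be tested. The median log2 ratio of full-length over partial reads was 0.78 over the 45 members, 1.34 over all tested snoRNAs and 1.76 over the 137 box C/D snoRNAs among them.

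The 8 members with more full-length reads were SNORA80E, SNORA7A, SNORA18, SNORA70, SNORA84, SNORA54, SNORA3B and SNORA58. SNORA80E had 153, 31 and 121 full-length reads against 16, 4 and 16 partial ones, a log2 ratio of 3.04 ± 0.57 (SE, adjusted p = 1.07e-06 by edgeR). SNORA7A had 109, 12 and 99 against 13, 2 and 15 (2.82 ± 0.61, edgeR adjusted p = 2.55e-05). SNORA18, from TAF1D, had 28, 15 and 76 against 5, 3 and 10 (2.59 ± 0.70, edgeR adjusted p = 0.00072). In these 3 RNAs full-length reads were in excess in every library. SNORA70 had 90 full-length and 9 partial reads, SNORA84 32 and 3, SNORA54 18 and 1, and SNORA3B 54 and 10. SNORA58, with 12, 1 and 22 against 1, 1 and 3, was in excess in 2 of 3 libraries.

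The 3 members with more partial reads were SNORA2B, SNORA31 and SNORA9. SNORA2B, a 28S guide, had 4, 9 and 7 partial reads and 0 full-length reads in each library, so partial reads were at least 6.67-fold higher, taking 3 reads over the 3 libraries as the floor (edgeR adjusted p = 0.00126). SNORA9, also a 28S guide, had 7, 7 and 11 partial against 1, 0 and 2 full-length reads, a ratio of 8.33 (95% counting interval 2.54 to 43.1, edgeR adjusted p = 0.0158). SNORA31, hosted by TPT1, had 5, 2 and 6 against 0, 0 and 1, a ratio of 13.0 (1.95 to 552, edgeR adjusted p = 0.0303). All 3 went the same way in each library. Without library 3, 2 of these 3 partial calls and 7 of the 8 full-length calls still had enough reads to be tested. SNORA31 and SNORA54 did not. Of the tested calls, 0 partial (1 member at an unadjusted p under 0.05 in edgeR) and 2 full-length calls remained. Of all 177 snoRNAs then tested, 23 were called partial and 40 full length. Without library 1, SNORA31 again could not be tested, and 1 partial and 4 full-length calls remained. Of all 190 snoRNAs then tested, 22 and 44 were called. With a separate library size for each part, which moved the median log2 ratio of all tested snoRNAs by -1.68, 1 member had more full-length and 15 had more partial reads, in place of 8 and 3. Of all tested snoRNAs, 14.4% and 35.8% were then called in these directions.

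Hairpin-sized reads, spanning 40 to 60% of the RNA and so close to 1 hairpin in length, made up 7.36%, 26.8% and 9.79% of member reads (14.6% ± 10.6, SD, n = 3). In box C/D snoRNAs they made up 6.54%, 14.6% and 6.25% (9.14% ± 4.75). The members' share was higher in each library, by log2 ratios of 0.17, 0.87 and 0.65, with a mean of 0.56 ± 0.36 (SD) or 1.48-fold. The exact sign-flip permutation test gave p = 0.25, the smallest that 3 libraries allow. Library 2 had the highest share in both classes. Without SNORA19, a setting chosen after seeing the data, the mean log2 ratio was 0.33. Hairpin-sized reads were found in 56 members, and in 32 of the 36 with at least 20 reads.

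In libraries 2 and 3 more of the members' hairpin-sized reads reached the 3′ than the 5′ end of the RNA. Those with the RNA's 3′ end (within 2 nt) made up 2.79%, 22.8% and 5.32% of member reads, and those with the 5′ end 4.18%, 2.75% and 4.01%. Those with the 5′ end thus stood at a like level in the 3 libraries, and those with the 3′ end were high in library 2 and the lower of the pair in library 1. No read of SNORA80E could count with the 3′ end, since its reads stop at position 134 of 137. Without SNORA80E the library 1 shares were 3.43% with the 3′ end and 4.53% with the 5′ end. In box C/D snoRNAs such reads with the 3′ end made up 2.14% ± 1.69 and those with the 5′ end 3.96% ± 1.64.

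By hairpin-sized share, the 5 highest among members with at least 20 reads were SNORA2B with 71.4% of its 21 reads, SNORA32 with 44.8% of 29, SNORA19 with 42.0% of 157, SNORA21 with 41.7% of 24 and SNORA40 with 36.7% of 30. SNORA2B had 2, 8 and 5 such reads, all with the 3′ end. SNORA21, a 28S guide, had 4, 2 and 4, also all with the 3′ end. SNORA19 had 2, 47 and 17, of which 1, 44 and 12 had the 3′ end, so that library 2 supplied most of them. SNORA32 had 2, 8 and 3, and 11 of these 13 had the 3′ end. SNORA40 differed from the other 4, with 2, 2 and 7 hairpin-sized reads of which 9 had the 5′ end and 2 the 3′ end.

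A choice of 6 fragments from 5 RNAs is printed with the ACA in capitals, since they show where such reads begin and end within the RNAs printed above. Positions are counted from 1 at the 5′ end of the RNA.
SNORA19 64-128: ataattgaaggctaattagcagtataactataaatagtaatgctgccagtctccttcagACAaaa
SNORA2B 63-137: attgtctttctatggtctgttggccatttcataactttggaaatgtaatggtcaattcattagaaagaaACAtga
SNORA3A 64-130: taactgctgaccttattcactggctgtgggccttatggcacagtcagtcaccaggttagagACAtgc
SNORA64 116-134: cttgaggggtgcaACAggc
SNORA9 115-133: atagaaatttcagACAatg
SNORA3A 112-130: caccaggttagagACAtgc
The first 3 run from inside the H box to the 3′ end, and the last 3 are 19 nt pieces of the 3′ end. The long SNORA19 fragment, at chr10:119060011-119060075, had 0, 32 and 7 reads, the SNORA2B fragment, at chr12:48667457-48667531, 1, 7 and 4, and the long SNORA3A fragment, at chr11:8684290-8684356, 0, 4 and 2. The SNORA64 piece, at chr16:1962973-1962991, had 0, 13 and 8 reads, the SNORA9 piece, at chr7:44985378-44985396, 3, 5 and 4, and the SNORA3A piece, at chr11:8684338-8684356, 0, 4 and 1. SNORA21 had 2, 2 and 3 reads of a fragment from position 69 to 133, and SNORA31 1, 2 and 3 of one from 113 to 130. For SNORA21 these are positions in the reads, which run to 133 where the printed RNA has 132 bases. Its fragment was therefore not placed on the printed sequence. SNORA2B, SNORA9, SNORA21 and SNORA31 supplied these fragments in every library, while the SNORA19, SNORA64 and SNORA3A fragments had 0 reads in library 1.

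The inner ends of hairpin-sized reads were placed against the H box in the 53 members with an H box and an annotated length that matched the reads, a measure chosen after seeing the data. Of 151 reads with the 3′ end, from 32 members, 113 (74.8%) began inside the 6 bases of the H box, and these came from 21 members. SNORA19 gave 57 of the reads, 52 of them (91.2%) from inside the H box, and the other members 94, of which 61 (64.9%) began there. By their definition such reads begin within a window of 26.8 nt at the median length, of which the H box fills 22.4%. The H box was itself searched for only around the middle of the RNA, where these reads must begin. The 22.4% is therefore not a chance level for the 74.8%, and an excess over chance was not tested. Of 70 hairpin-sized reads with the 5′ end, from 23 members, 17 (24.3%) ended inside the H box. By library, 8 of 16, 73 of 83 and 32 of 52 of the 3′ reads began inside it.

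**Figure D3:**
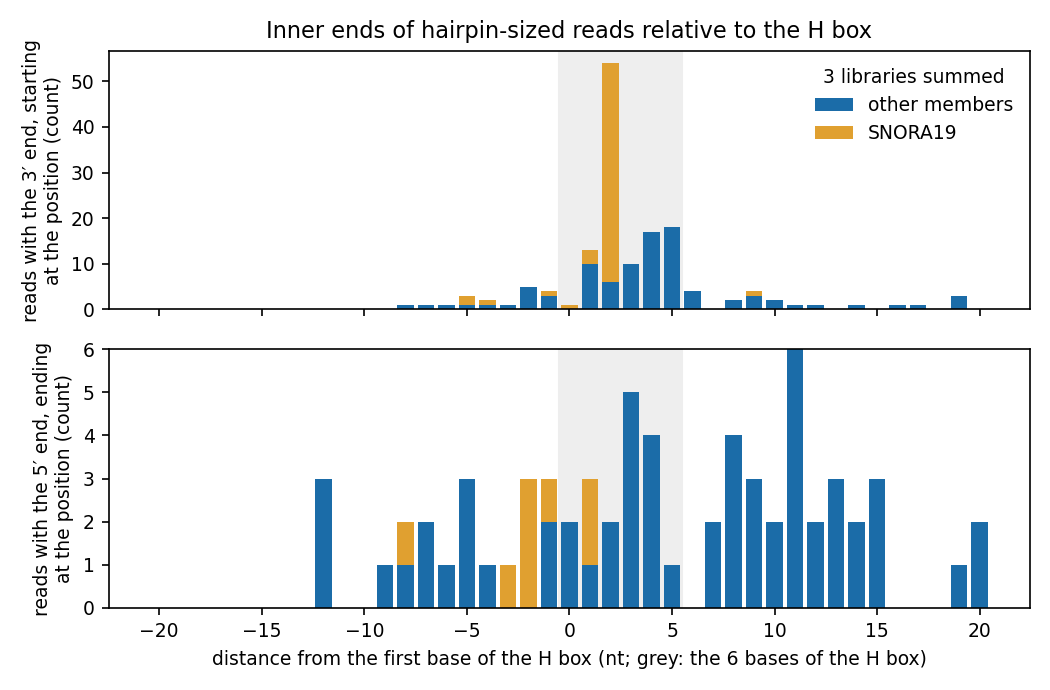
Number of hairpin-sized reads by the distance in nt of their inner end from the first base of the H box, summed over 3 libraries: reads with the 3′ end by where they start (top) and reads with the 5′ end by where they stop (bottom), for SNORA19 (orange) and other members (blue). Grey marks the 6 bases of the H box, in which 113 of 151 reads of the top panel start and 17 of 70 of the bottom panel stop; 3 of these 70 stop more than 20 nt away and are not drawn.

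Shorter reads showed the same tilt. Reads under 40% of the RNA with the 3′ end made up 6.47%, 17.8% and 6.86% of member reads, and those with the 5′ end 7.26%, 6.50% and 4.86%. Reads of 18 to 24 nt with the 3′ end made up 1.99%, 12.8% and 4.39%, against 2.29%, 1.25% and 1.16% with the 5′ end. The 3′ reads exceeded the 5′ reads in libraries 2 and 3 and not in library 1. The order in library 1 rested on SNORA80E, whose reads stop at position 134 of 137 and so never counted as 3′. Without SNORA80E, library 1 had 65 reads under 40% with the 3′ end and 65 with the 5′ end. Of 18 to 24 nt it then had 20 and 19. Libraries 2 and 3 kept the 3′ excess. SNORA64 gave 0, 17 and 15 of the short 3′ reads, SNORA9 3, 6 and 6, SNORA10 1, 6 and 6, and SNORA3A 0, 6 and 3. Reads of 20 to 24 nt, the size of miRNAs, made up 3.48%, 7.75% and 2.70% of member reads and 2.32%, 4.27% and 2.58% of box C/D reads.

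Coverage followed these fragments. An average base of the 5′ side, before the middle of the RNA, was covered by 84.8%, 50.6% and 83.5% of member reads, and one of the 3′ side by 79.6%, 74.1% and 81.0%. Only in library 2 was the 5′ side the lower. Among partial reads, 129, 41 and 126 were centred on the 5′ side and 100, 184 and 172 on the 3′ side. The log2 ratio of 3′ over 5′ was -0.37, 2.17 and 0.45, with a mean of 0.75 ± 1.29 (SD) or 1.68-fold, and the exact sign-flip permutation test gave p = 0.5. The difference was thus within the spread between libraries, and without library 2 the mean was 0.041. Without gapped or opposite-strand reads the mean was 1.14, and the exact sign-flip permutation test gave p = 0.25, the smallest that 3 libraries allow.

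**Figure D4:**
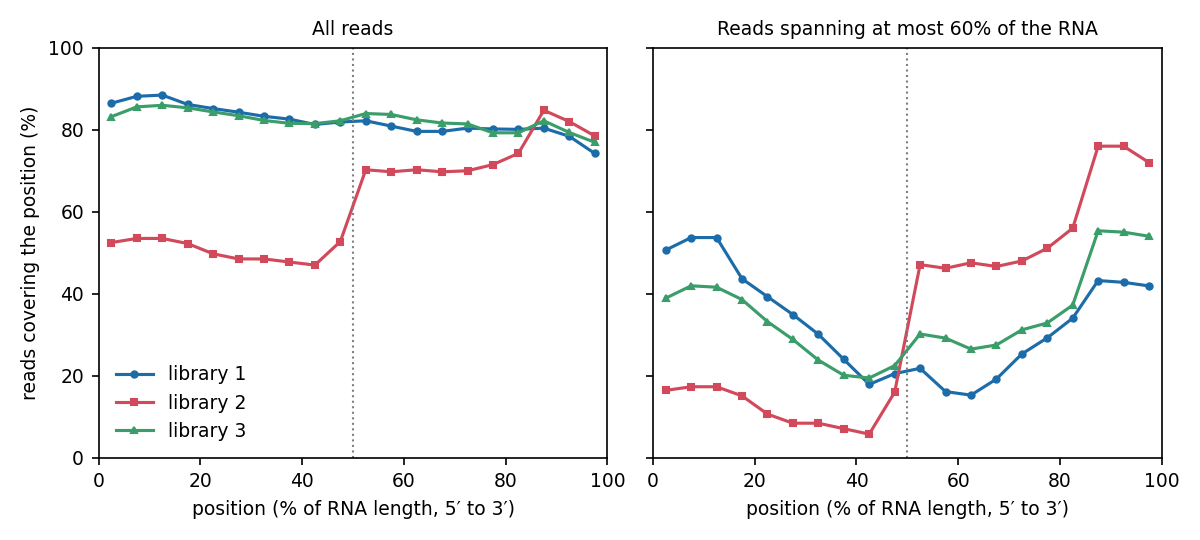
Share of member reads covering each position, as a percentage of RNA length from 5′ to 3′, for all reads (left) and for reads spanning at most 60% of the RNA (right), 1 line per library (blue, 1; red, 2; green, 3); the dotted line marks the middle. In library 2 coverage steps up at the middle, from an average of 50.6% on the 5′ side to 74.1% on the 3′ side, while in libraries 1 and 3 the 5′ side has the higher average (84.8% and 83.5%, against 79.6% and 81.0%).

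The side of the partial reads differed between members. The edgeR test, with library as a block, was run on the 161 snoRNAs with enough partial reads. Of 26 members tested, 3 had more 3′ reads (11.5%), where 9.94% of all tested snoRNAs were called in that direction, and 2 had more 5′ reads (7.69%), against 13.7% of all tested. The other 57 members had too few partial reads to be tested. The members' 3′ share of calls was near that background. The log2 ratio of 3′ over 5′ reads was above 0 in 14 of the 26 and below 0 in 12, with a median of 0.83, against -0.60 over all 161 and -0.80 over the 119 box C/D snoRNAs among them. At an unadjusted p under 0.05 in edgeR there were 9 of 26 members, 7 with more 3′ and 2 with more 5′ reads. For counts at an unadjusted p, here and elsewhere, no share over all tested snoRNAs was taken, so they have no background.

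The 2 members with more 5′ reads were the 2 with the highest levels. SNORA80E had 15, 4 and 15 reads on the 5′ side against 1, 0 and 1 on the 3′ side, a ratio of 17 (95% counting interval 4.36 to 146) and a log2 ratio of 3′ over 5′ of -3.90 ± 1.06 (SE, edgeR adjusted p = 0.00236). SNORA7A had 12, 2 and 13 against 1, 0 and 2, a ratio of 9.0 (2.77 to 46.4, edgeR adjusted p = 0.0217). Both leaned to the 5′ side in every library. Their partial reads were a small part of their signal, 9.55% of the reads of SNORA80E and 11.7% of those of SNORA7A.

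The 3 members with more 3′ reads were SNORA2B, SNORA3A and SNORA21. SNORA2B had 0 reads on the 5′ side and 4, 9 and 7 on the 3′ side, at least 6.67-fold more by the floor of 3 reads over the libraries (edgeR adjusted p = 0.00236). SNORA3A had 0, 0 and 1 against 0, 12 and 9, a ratio of 21 (3.38 to 868, edgeR adjusted p = 0.0192), and its libraries differed, with 0 partial reads in library 1. SNORA21 had 0, 1 and 0 against 6, 4 and 6, a ratio of 16 (2.49 to 671, edgeR adjusted p = 0.0377). SNORA2B and SNORA21 leaned to the 3′ side in every library. The other RPL27A snoRNA, SNORA3B, had 3, 1 and 4 reads on the 5′ side and 0, 2 and 0 on the 3′ side and did not pass the test (log2 ratio -1.83 ± 1.46, edgeR adjusted p = 0.371).

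Members with many 3′ reads did not all pass. SNORA19 had 1, 50 and 13 reads on the 3′ side against 3, 2 and 7 on the 5′ side, so that library 1 went the other way (log2 ratio 1.77 ± 0.76, edgeR adjusted p = 0.0733). SNORA64 had 4, 19 and 21 against 3, 3 and 10 (1.41 ± 0.72, edgeR adjusted p = 0.13). SNORA20, an 18S guide, had 2, 9 and 7 against 1, 1 and 0 (2.87 ± 1.18, edgeR adjusted p = 0.061). SNORA64 and SNORA20 leaned to the 3′ side in every library all the same. None of the 5 calls remained without library 2 or without library 3, where edgeR called 0 of all tested snoRNAs in either direction and 5 and 2 members had an unadjusted p under 0.05. Without library 1, the calls of SNORA2B and SNORA3A remained and both 5′ calls were lost, with 2 members 5′ at an unadjusted p under 0.05. With a separate library size for each part, which moved the median log2 ratio of all tested snoRNAs by 0.46, 7 members had more 3′ and 1 had more 5′ reads, in place of 3 and 2, where 14.3% and 9.94% of all tested snoRNAs were called. Without the library block, 5 and 2 members were called, against 8.7% and 11.8% of all tested. DESeq2 called 1 member in each direction, against 6.21% and 8.7%.

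**Figure D5:**
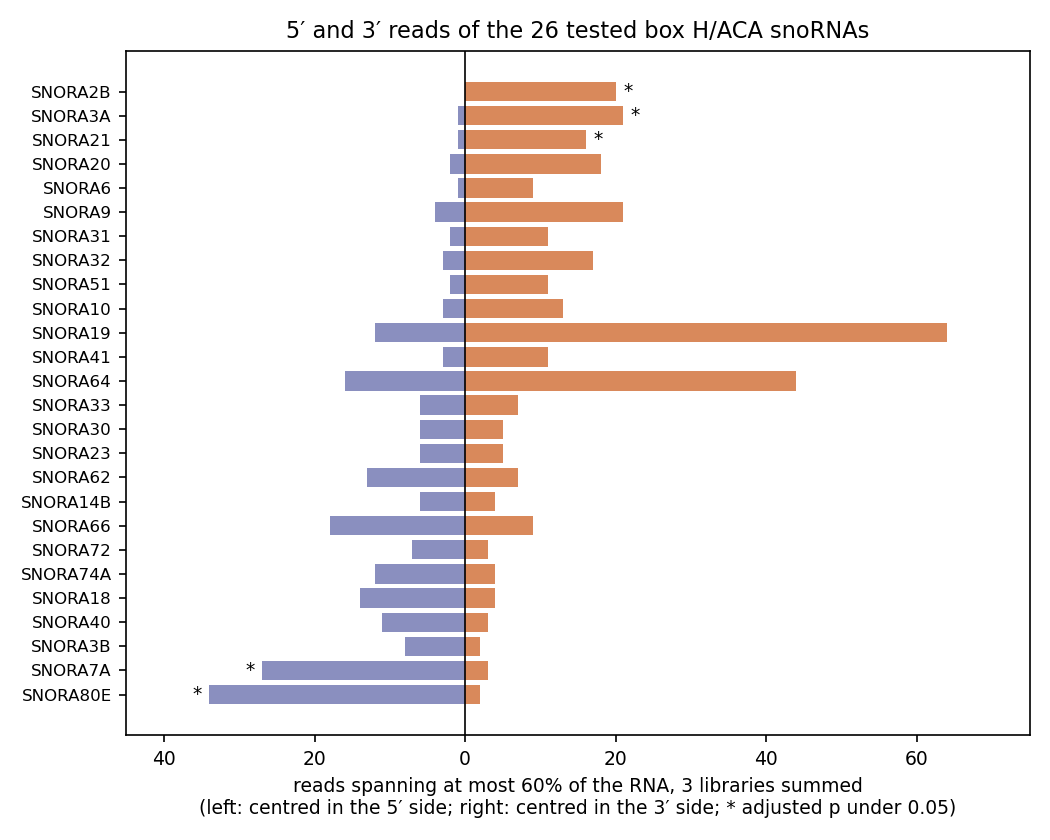
Partial reads of the 26 tested members, summed over 3 libraries, with reads centred on the 5′ side drawn to the left and those centred on the 3′ side to the right; stars mark an edgeR adjusted p under 0.05. SNORA80E (34 against 2) and SNORA7A (27 against 3) lean to the 5′ side, SNORA2B (0 against 20), SNORA3A (1 against 21) and SNORA21 (1 against 16) to the 3′ side, and SNORA19 has the most 3′ reads (64).

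By guide list, 5 guides of 18S rRNA were tested for side and 1 was called 5′ (SNORA80E), with a median log2 ratio of -0.84, where 13.7% of all tested snoRNAs were called 5′ and 9.94% 3′. Of 10 guides of 28S rRNA tested, 2 were called 3′ (SNORA2B and SNORA21) and 1 5′ (SNORA7A), with a median of 1.59. In the length test, 2 of 11 tested 18S guides had more full-length reads (SNORA80E and SNORA70) and 0 had more partial reads, with a median log2 ratio of 0.78, where 40.3% and 15.4% of all tested snoRNAs were called. Of 15 tested 28S guides, 2 had more full-length reads (SNORA7A and SNORA54) and 2 more partial reads (SNORA2B and SNORA9), with a median of 0.0075. Full-length reads made up 67.8% ± 9.22 (SD, n = 3) of the reads of 18S guides and 51.7% ± 20.2 of those of 28S guides, and hairpin-sized reads 7.53% ± 4.63 and 20.8% ± 15.9. Within libraries 1, 2 and 3 the 28S list minus the 18S list gave -3.46, -28.5 and -16.3 percentage points of full-length reads (-16.1 ± 12.5, SD of the difference, n = 3) and 6.57, 26.3 and 7.03 of hairpin-sized reads (13.3 ± 11.3). Both differences had 1 direction in the 3 libraries and were most marked in library 2. Single RNAs weighed heavily in them. On the 18S list, SNORA80E had 153 full-length reads among its 188 in library 1. On the 28S list, SNORA19 had 47 hairpin-sized reads among its 68 in library 2. The lists were not compared without these RNAs, so the direction may depend on them.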

How the data were processed

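Small RNA reads placed on snoRNAs were analysed in 3 HEK293 libraries. The deposited values are raw counts, as the file headers say: a row holds a snoRNA, a read length, a first and last position and a count of reads. The submitters' processing notes name GRCh38.p10 as the authors' build. How reads were trimmed and aligned is not given in the sources used. A second deposited table of counts was not used here. Members were named through RefSeq symbols and synonyms (82 of 83; 1, ACA59, kept the file's name). Lengths, sequences and hosts came from GENCODE 29. The highest read position was used as length where reads went past the annotated end or, with 10 or more reads, stopped more than 10 nt before it.

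Gapped reads, whose length differs from their span, made up 37.7%, 24.5% and 40.8% of member reads, and 0 lay on the opposite strand. Full length meant at least 90% of the RNA, partial at most 60%, hairpin-sized 40 to 60%, and an end was reached within 2 nt. Class comparisons used exact two-sided sign-flip permutation tests over 3 libraries. Partial against full-length and 5′ against 3′ reads were tested with edgeR 4.0.16 (quasi-likelihood test, a block per library, both parts scaled by the same library size, at least 10 reads in all, Benjamini-Hochberg adjustment at 0.05), and DESeq2 1.42.0 was an alternative. Both tests were tested on simulated data. Other software was R 4.3.3, Python 3.11.15 and SciPy 1.17.1.

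The members, lists and tests were chosen with earlier results of these data known. Members were named if they were among the 10 highest levels, up to 5 per direction with the largest ratio in either test among those called with 1 direction in every library, the 5 highest hairpin-sized shares among those with at least 20 reads, in lettered families with at least 20 reads, or among the 4 highest of a guide list. Others were named after their values were seen.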

Additional observations from a re-analysis of the deposited data

How the results depend on the processing

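The members' share of snoRNA counts was 8.23% with each distinct sequence counted once and 73.0% of box H/ACA counts, and 4.19% to 5.91% leaving out 1 library. The log2 ratio of full-length shares, members over box C/D, reversed to 0.13 with each distinct sequence counted once and to 0.52 at a limit of 95% of the RNA, and ran from -0.25 to 0.022 leaving out 1 library. Without gapped or opposite-strand reads this ratio was -0.29 (exact sign-flip permutation test, p = 0.25). The hairpin-sized ratio was above 0 in all alternatives, at 0.20 with each distinct sequence counted once, 1.16 for spans of 45 to 55% of the RNA and 0.41 to 0.76 leaving out 1 library. The 3′ over 5′ ratio was -0.58 over all reads, full length included, and 0.041 to 1.31 leaving out 1 library. Without gapped or opposite-strand reads it was 1.14 (exact sign-flip permutation test, p = 0.25). The split at the H box moved no read to the other side. Members called 3′ numbered 0 to 4 leaving out 1 library, 1 over all reads, 7 with a TMM library size per part, 1 with DESeq2 and 5 with no replicate block. Leaving out library 1, 2 or 3 in turn, these were 4 of 16, 0 of 19 and 0 of 13 members tested. Of all tested snoRNAs, 14 of 134, 0 of 145 and 0 of 130 were then called 3′. Over all reads it was 1 of 43 members, beside 23 of 198 snoRNAs. Members called 5′ numbered 0 leaving out any library, 1 for reads up to 50% of the RNA, 5 over all reads, 1 with TMM sizes per part and 1 with DESeq2. Of all tested snoRNAs, 9 of 134, 0 of 145 and 0 of 130 were called 5′ leaving out library 1, 2 or 3. For reads up to 50% it was 1 of 17 members, beside 18 of 147 snoRNAs. Over all reads it was 5 of 43 members, beside 69 of 198 snoRNAs. Members with more full-length reads numbered 2 to 10 leaving out 1 library, 5 with distinct sequences counted once, 1 with TMM sizes per part and 4 with at least 10 reads in every library. Leaving out library 1, 2 or 3, these were 4 of 41, 10 of 42 and 2 of 33 members, beside 44 of 190, 76 of 190 and 40 of 177 snoRNAs. With distinct sequences it was 5 of 44 members, beside 38 of 195 snoRNAs. With 10 reads in every library it was 4 of 8 members, beside 73 of 113 snoRNAs. Members with more partial reads numbered 0 to 2 leaving out 1 library, 1 with distinct sequences, 15 with TMM sizes per part, 0 with at least 10 reads in every library and 1 with DESeq2. Of all tested snoRNAs, 22 of 190, 16 of 190 and 23 of 177 had more partial reads leaving out library 1, 2 or 3. With distinct sequences 26 of 195 did, with 10 reads in every library 18 of 113, and with DESeq2 28 of 201. The causes were not tested, but leaving out a library leaves fewer samples, and the filter of 10 reads in every library left 8 members in the length test and none in the position test, which gave no value.

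The 16 single-member calls kept their direction in all 158 refits and stayed past the threshold in 105 of them. The refits reuse the same reads and are not independent checks. The split at the H box, counted among them, left the values of every position call unchanged. The library served as the block because both parts of a snoRNA come from the same library, and without this replicate block no count changed by over 1.5 times except the 3′ calls given above. With 2702 member reads in all, 57 members had too few reads to be tested for side and 38 for length.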
